A study of Sus scrofa with 6 samples.

Results

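The genes described are 10 HOX genes of paralogue groups 2 to 7: HOXA2, HOXA3, HOXA5 and HOXA7 of cluster A, HOXB2, HOXB3, HOXB4 and HOXB7 of cluster B, HOXC6 of cluster C and HOXD4 of cluster D. They were taken by symbol from the 17627 genes of the table, whatever their level, and each matched a single Ensembl identifier. The table holds 6 libraries of longissimus dorsi, a muscle that runs along the spine: 3 of Wannanhua, an indigenous pig of China, and 3 of Yorkshire, which is bred for lean growth. All are labelled as 5 months old, although the design text speaks of piglets. The labels number the libraries of a breed 1 to 3 without saying that they came from separate animals, so the p-values refer to the variation among libraries, part or all of which may be technical. They do not give the level of the back at which the muscle was taken.

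HOX genes encode homeodomain transcription factors that give the segments of the embryo their identity along the axis from head to tail. Genes with low paralogue numbers act from the hindbrain and neck, and those with higher numbers act progressively towards the tail, in the order in which they lie in each cluster. Cells of adult tissues can keep part of this pattern, as is known of human skin fibroblasts from different body sites. HOX proteins bind DNA together with TALE homeodomain partners of the PBX, MEIS and PKNOX families.

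Levels are given as FPKM, the fragments of a transcript scaled by its length and by the depth of the library, so that genes can be compared per length. Reads recovered from the scaled counts (16385602 to 21056701 per library) give the depth behind each level. The 10 genes together held between 554 and 879 of these reads per library, and their 95% Poisson intervals cover counting error only. Myofibre genes were abundant throughout, with a summed level of 14613 to 29983 FPKM in Wannanhua and 33252 to 36893 FPKM in Yorkshire over the 5 of 12 listed markers that had a row, and none of these at 0 throughout. The sum was led by TNNC2, and its markers did not move together. TNNC2 and CASQ1 were lower in Wannanhua without overlap of the breeds, DES and NEB were higher without overlap, and the breeds overlapped in ATP2A1. Since these are bulk samples, fewer cells of a type and less RNA per cell cannot be told apart.

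Wannanhua 1 stood apart from the other 5 libraries in these genes. It had the highest level of HOXA2, HOXA3, HOXB2 and HOXB3, the members of groups 2 and 3. It had the lowest level of HOXD4, HOXA5, HOXC6, HOXA7 and HOXB7. HOXB4 of group 4 was the exception, with its highest level in Wannanhua 2 and its lowest in Wannanhua 3. Wannanhua 1 was thus the highest or lowest library for 9 of 10 members, and for 7 of the 7 that passed the filter of the test, whereas it was so for 30.0% of the 11791 genes tested. Of these 7, HOXB3 passed the filter only with Wannanhua 1 included. The limma breed difference of each member is therefore given with and without it.

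**Figure D1:**
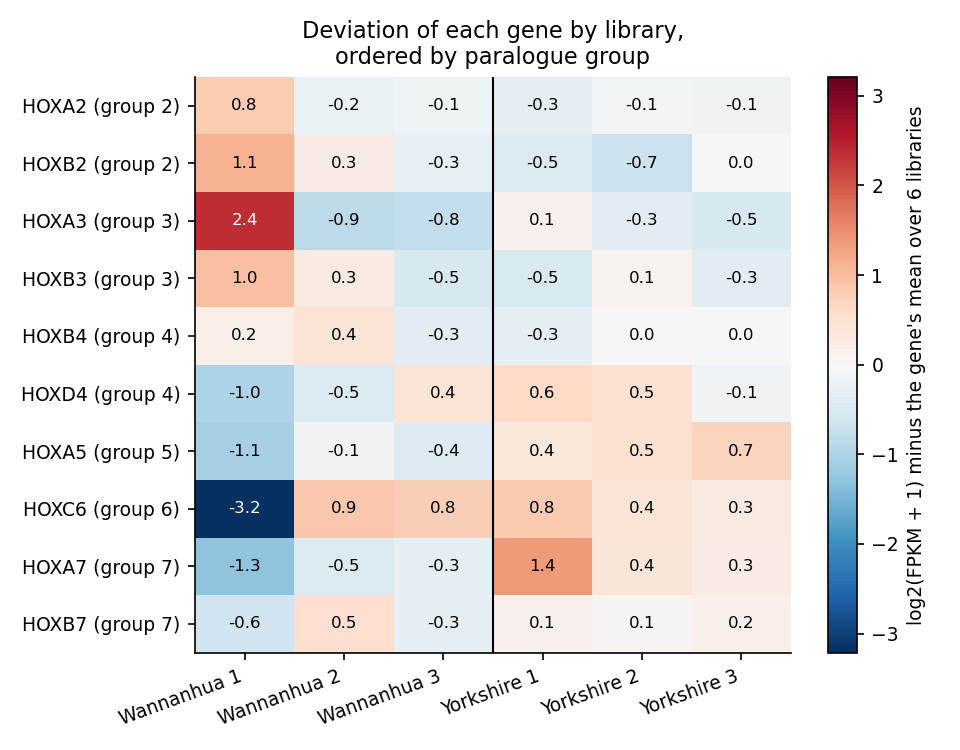
Heat map of log2(FPKM + 1) minus each gene's mean over the 6 libraries, with genes in rows ordered by paralogue group and libraries in columns, Wannanhua left of the line. In Wannanhua 1 the values run from 2.37 for HOXA3 to -3.21 for HOXC6, positive in groups 2 and 3 and negative in groups 5 to 7.

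The share of the members' summed FPKM that came from each paralogue group showed the same contrast within libraries, on a measure that the scaling between libraries does not touch. Groups 2 and 3 made up 84.1% of the sum in Wannanhua 1, 12.4% in Wannanhua 2 and 8.06% in Wannanhua 3, against 8.42%, 9.79% and 10.8% in Yorkshire 1, 2 and 3. Their largest part in Wannanhua 1 was group 3, with 63.4% of the sum. Group 6, which is HOXC6 alone, gave 0.819% of the sum in Wannanhua 1, 56.9% in Wannanhua 2 and 60.3% in Wannanhua 3, against 43.5%, 41.0% and 39.4% in Yorkshire 1, 2 and 3. The sum itself was 28.7, 34.8 and 31.5 FPKM in Wannanhua 1, 2 and 3, against 45.0, 34.6 and 33.1 FPKM in the Yorkshire libraries. The sum was lowest in Wannanhua 1 and highest in Yorkshire 1, and the breeds overlapped.

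**Figure D2:**
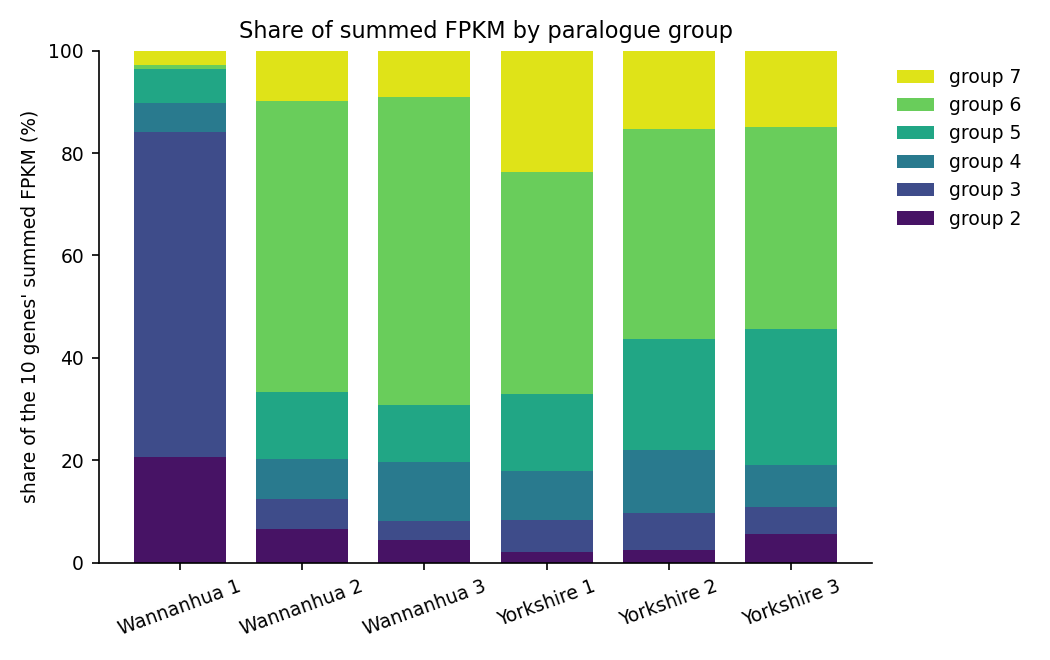
Stacked bars of the share, in percent, of the 10 genes' summed FPKM that fell to each paralogue group, 1 bar per library. Groups 2 and 3 fill 84.1% of the bar of Wannanhua 1 and at most 12.4% of any other bar.

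Ratios between members of the same cluster, taken from these same levels, restate this contrast and add no separate support for it. Each sets a member that was highest in Wannanhua 1 over a member that was lowest there. The ratio of HOXA3 to HOXA7, from the low-numbered and high-numbered side of cluster A, was 21.5 in Wannanhua 1, 0.376 in Wannanhua 2 and 0.343 in Wannanhua 3, against 0.255, 0.332 and 0.297 in Yorkshire 1, 2 and 3. In cluster B the ratio of HOXB2 to HOXB7 was 52.8 in Wannanhua 1, 1.51 in Wannanhua 2 and 3.11 in Wannanhua 3, against 1.02, 0.807 and 1.90 in Yorkshire 1, 2 and 3. In both ratios Wannanhua 1 lay far above the other libraries, among which the breeds came close to each other. HOXB7 rested on 2 reads in Wannanhua 1 (0.242 to 7.22) and 8 reads in Wannanhua 3, so the size of its ratio is uncertain there.

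Group 2 holds HOXA2 and HOXB2, which in mice pattern the hindbrain and, for Hoxa2, the skeleton of the branchial arches. HOXA2 (ENSSSCG00000016706) stood at 1.28, 0.107 and 0.171 FPKM in Wannanhua 1, 2 and 3, against 0.0589, 0.211 and 0.200 FPKM in Yorkshire 1, 2 and 3. Behind these levels were 25 reads in Wannanhua 1 (16.2 to 36.9) and 1 to 4 reads in each other library, so that differences among the other 5 were not detectable at this depth. HOXB2 (ENSSSCG00000017533) stood at 4.67, 2.15 and 1.19 FPKM in Wannanhua 1, 2 and 3, against 0.880, 0.633 and 1.65 FPKM in Yorkshire 1, 2 and 3. Its breeds overlapped, since Wannanhua 3 lay below Yorkshire 3.

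Group 3 holds HOXA3 and HOXB3; in mice Hoxa3 is needed for the thymus and parathyroid, and Hoxb3 acts beside it in the neck and hindbrain. HOXA3 (ENSSSCG00000016705) stood at 15.5, 0.755 and 0.842 FPKM in Wannanhua 1, 2 and 3, against 2.50, 1.50 and 1.21 FPKM in Yorkshire 1, 2 and 3. Wannanhua 1 had 419 reads of HOXA3 (380 to 461) and 6.20 times the level of the highest other library, while Wannanhua 2 and 3 lay below all Yorkshire libraries. The RefSeq gene table used here is of build Sscrofa11.1, a later build than that of the files. In it the span of HOXA3 overlaps those of HOXA4, HOXA5 and HOXA6, and of genes named only by a locus number. Among the latter is LOC110257591, which also overlaps HOXA7. The labels do not say how the authors' counting treated such overlaps. HOXB3 (ENSSSCG00000017534) stood at 2.73, 1.31 and 0.333 FPKM in Wannanhua 1, 2 and 3, against 0.348, 1.05 and 0.507 FPKM in Yorkshire 1, 2 and 3. Its Wannanhua libraries took the highest, the second highest and the lowest place, so the breeds overlapped.

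Group 4 holds HOXB4, known for expanding blood stem cells when overexpressed in mice, and HOXD4, which in mice helps to shape the neck vertebrae. HOXB4 (ENSSSCG00000017535) stood at 1.14, 1.51 and 0.460 FPKM in Wannanhua 1, 2 and 3, against 0.482, 0.867 and 0.877 FPKM in Yorkshire 1, 2 and 3, on 4 to 14 reads per library. HOXD4 (ENSSSCG00000015984) stood at 0.535, 1.21 and 3.18 FPKM in Wannanhua 1, 2 and 3, against 3.80, 3.34 and 1.86 FPKM in Yorkshire 1, 2 and 3. Wannanhua 1 and 2 lay below all Yorkshire libraries in HOXD4, and Wannanhua 3 lay among them.

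HOXA5 of group 5, which in mice shapes the skeleton at the border of neck and chest and the lung, was lower in all Wannanhua libraries than in any Yorkshire library. HOXA5 (ENSSSCG00000016703) stood at 1.87, 4.54 and 3.48 FPKM in Wannanhua 1, 2 and 3, against 6.70, 7.54 and 8.82 FPKM in Yorkshire 1, 2 and 3. Its mean was 3.30 ± 1.35 FPKM in Wannanhua and 7.69 ± 1.07 FPKM in Yorkshire (SD, n = 3), a ratio of 0.429. The difference on the log2(FPKM + 1) scale was -1.06 ± 0.26 (SE), at a limma adjusted p = 0.0780, which misses the threshold of 0.05. It passed in the count test on recovered reads, at -1.39 on the log2 scale and an edgeR adjusted p = 0.0459 (-1.14 without Wannanhua 1), where the adjusted p lay between 0.0622 and 0.166 with each library left out in turn, and was 0.0870 in edgeR without TMM scaling. Over its 24 alternatives the adjusted p of HOXA5 ran from 0.00101 to 0.223, and the difference stayed below 0 in each, at -0.79 without Wannanhua 1. In the later build HOXA5 overlaps HOXA3 and HOXA6, so its reads may in part be shared with them.

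HOXC6 of group 6, a gene of the chest region in mice, was the most abundant member in 5 of 6 libraries. HOXC6 (ENSSSCG00000030585) stood at 0.235, 19.8 and 19.0 FPKM in Wannanhua 1, 2 and 3, against 19.6, 14.2 and 13.0 FPKM in Yorkshire 1, 2 and 3. Wannanhua 1 had 4 reads of HOXC6 (1.09 to 10.2) where the other libraries had 236 to 331, and the lowest of those had 55.3 times its level. Wannanhua 2 and 3 lay at the level of Yorkshire 1. The breed difference was -1.03 ± 1.04 on the log2(FPKM + 1) scale (SE; limma adjusted p = 0.601), and 0.32 without Wannanhua 1 (limma adjusted p = 0.516), so that its sign rested on this library.

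Group 7 holds HOXA7 and HOXB7, which act in the chest region of mice. HOXA7 (ENSSSCG00000016701) stood at 0.719, 2.01 and 2.45 FPKM in Wannanhua 1, 2 and 3, against 9.78, 4.50 and 4.06 FPKM in Yorkshire 1, 2 and 3. The breeds did not overlap, with means of 1.73 ± 0.899 FPKM in Wannanhua and 6.11 ± 3.18 FPKM in Yorkshire (SD, n = 3), a ratio of 0.282. The difference of HOXA7 was -1.36 ± 0.37 on the log2(FPKM + 1) scale (SE; limma adjusted p = 0.0948), and it missed the threshold in the count test too (edgeR adjusted p = 0.0793). Without Wannanhua 1 it was -1.06, and its adjusted p ran from 0.00398 to 0.249 over 24 alternatives, below 0 in each. HOXB7 (ENSSSCG00000017538) stood at 0.0884, 1.43 and 0.382 FPKM in Wannanhua 1, 2 and 3, against 0.860, 0.784 and 0.868 FPKM in Yorkshire 1, 2 and 3. Its Wannanhua libraries held the 2 lowest levels and the highest, on 2 to 32 reads, while the Yorkshire libraries lay close together on 18 to 21 reads. No single entry was found for HOXB4 and HOXD4 in the later build, so their overlaps were not checked. In that build HOXA3, HOXA7, HOXB3 and HOXC6 each overlap at least 1 gene named only by a locus number. Only whole spans were compared, so whether the transcripts themselves share positions was not checked. The library kit does not mark strand, so reads at shared positions cannot be told apart by strand.

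**Figure D3:**
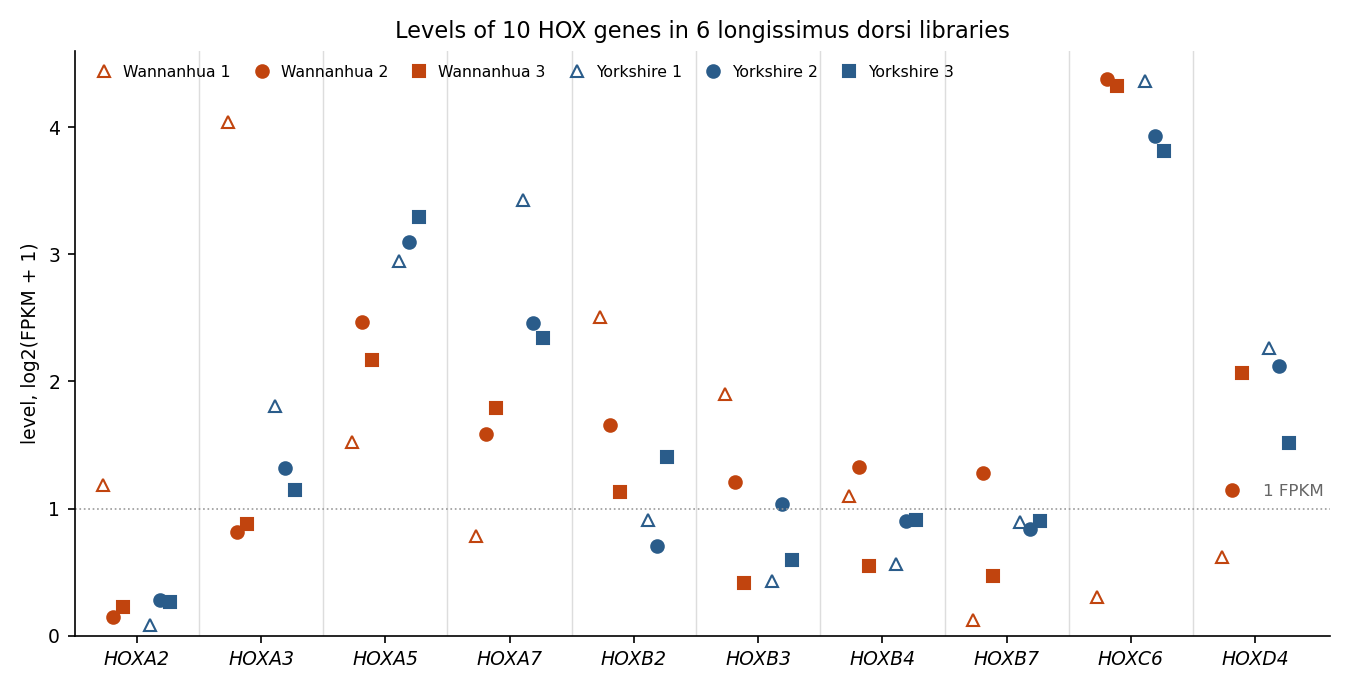
Level of each gene as log2(FPKM + 1) in each library, Wannanhua in orange left of Yorkshire in blue, with marker shapes for libraries 1 to 3 and a dotted line at 1 FPKM. The open orange triangle of Wannanhua 1 lies above the other libraries for HOXA2, HOXA3, HOXB2 and HOXB3 and below them for HOXA5, HOXA7, HOXB7, HOXC6 and HOXD4.

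The order of the levels was given by the mean in each breed. In Yorkshire HOXC6 led with 15.6 ± 3.48 FPKM (SD, n = 3), followed by HOXA5, HOXA7, HOXD4, HOXA3, HOXB2, HOXB7, HOXB4 and HOXB3, and HOXA2 came last with 0.157 ± 0.0849 FPKM. The ranges of neighbours in this order overlapped in 6 of 9 cases, and were separate between HOXC6 and HOXA5, between HOXA7 and HOXD4, and between HOXB3 and HOXA2. In Wannanhua HOXC6 led by its mean, at 13.0 ± 11.1 FPKM, followed by HOXA3 at 5.69 ± 8.47 FPKM (SD, n = 3), and no pair of neighbours in the order was separate. Over all 6 libraries the mean of HOXC6 lay at the 79.3 percentile of the table's genes and that of HOXA2 at the 21.7 percentile.

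The series asks which genes differ in the muscle of the 2 breeds, and 7 of the 10 members could be tested: HOXA2, HOXB4 and HOXB7 did not reach 1 FPKM in 3 libraries. Of the 7, 0 passed a limma adjusted p of 0.05, beside 3.05% of all genes tested, and 2 had an unadjusted p under 0.05, HOXA5 and HOXA7, beside 22.1% of all genes tested. The edgeR test on recovered reads with TMM scaling, which kept 8 members, called 1 of them, HOXA5, beside 3.06% of its genes. DESeq2 on the same reads called HOXA5 and HOXA7 of the 7 members with an adjusted p, beside 9.57% of its genes. After quantile normalization limma called 1 of 7, HOXA5 (limma adjusted p = 0.0392), beside 2.87% of the genes. Of the 7, 3 had a difference above 0 and 4 below, with a median of -0.69 on the log2(FPKM + 1) scale, beside a median of 0.12 over all genes tested. That median was 0.00422 after quantile normalization, and the split of genes called was 138 higher and 200 lower in Wannanhua there, 208 and 152 on the deposited scale. The breeds did not overlap in 2 of the 7, HOXA5 and HOXA7, both lower in Wannanhua, and 0 were higher without overlap. Among all tested genes 9.63% were lower without overlap. That share covers only the direction in which these 2 lay, and the share in either direction was not computed.

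The other tested members did not pass, and their breeds overlapped. On the log2(FPKM + 1) scale HOXB2 differed by 0.75 ± 0.36 (SE; limma adjusted p = 0.271) and HOXB3 by 0.49 ± 0.37 (SE; limma adjusted p = 0.477). HOXA3 differed by 0.49 ± 0.81 (SE; limma adjusted p = 0.761) and HOXD4 by -0.69 ± 0.38 (SE; limma adjusted p = 0.336). Without Wannanhua 1 these differences were 0.38 for HOXB2, -0.58 for HOXA3 and -0.36 for HOXD4, and that of HOXA3 thus changed sign. HOXB3 did not pass the filter without Wannanhua 1, and its difference there was 0.13 in a fit without a filter. Other libraries moved some members as well: without Wannanhua 3 the difference was -1.08 for HOXD4 and 0.87 for HOXB3. In a fit without a filter, the members below it differed by 0.31 ± 0.27 for HOXA2, 0.20 ± 0.23 for HOXB4 and -0.25 ± 0.29 for HOXB7 (SE), and without Wannanhua 1 by -0.0202, 0.14 and -0.00485. Without Wannanhua 2 that of HOXB4 was 0.029 and that of HOXB7 was -0.58, so the small differences of these genes rested on single libraries. A pattern by group number ran through the 6-library values, above 0 for groups 2 and 3 and below 0 for groups 5 to 7, and it did not hold without Wannanhua 1, where HOXA2 and HOXA3 lay below 0 and HOXC6 above.

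**Figure D4:**
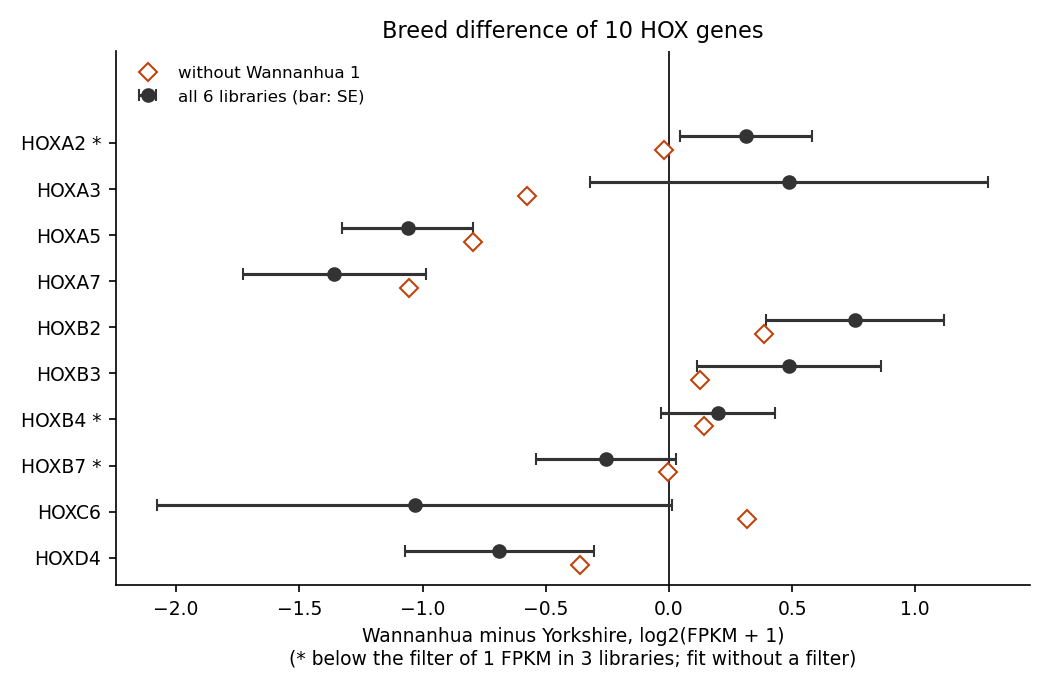
Breed difference of each gene, Wannanhua minus Yorkshire in units of log2(FPKM + 1), as filled circles with SE bars for all 6 libraries and open diamonds without Wannanhua 1; an asterisk marks genes below the filter. HOXA5 and HOXA7 lie below 0 in both, at -1.06 and -1.36 with all libraries, while HOXC6 moves to 0.32 and HOXA3 to -0.58 without Wannanhua 1.

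Of 29 other HOX genes listed, 12 had a row, and 6 of these stayed under 1 FPKM in every library. Of the 5 tested, all differed below 0 and 3 passed in limma, HOXA9, HOXA10 and HOXC10 of groups 9 and 10, which act further towards the tail. HOXA9, on the tail side of HOXA7 in its cluster, stood at 0, 0.346 and 0.123 FPKM in Wannanhua 1, 2 and 3, against 9.49, 8.68 and 6.44 FPKM in Yorkshire 1, 2 and 3 (limma adjusted p = 0.00143). HOXA10 was listed at 0 in all Wannanhua libraries, against 4.66, 4.47 and 5.96 FPKM in Yorkshire 1, 2 and 3 (limma adjusted p = 0.00123). HOXC10 stood at 0, 0 and 1.24 FPKM in Wannanhua 1, 2 and 3, against 34.6, 68.1 and 54.0 FPKM in Yorkshire 1, 2 and 3 (limma adjusted p = 0.00143). In these 3 genes all Wannanhua libraries lay below all Yorkshire libraries, and the calls held without Wannanhua 1 (limma adjusted p = 0.0122 for each). HOXA9 and HOXA10 passed the filter only through the 3 Yorkshire libraries, where they were high. They were thus tested in only 3 of the 6 fits that left out a library, those without a Wannanhua library. The other 2 tested genes, HOXD9 and HOXD1, did not pass in limma and were split differently. HOXD9 stood at 0.200, 0.867 and 12.4 FPKM in Wannanhua 1, 2 and 3, against 13.3, 13.2 and 12.4 FPKM in Yorkshire 1, 2 and 3 (limma adjusted p = 0.171). HOXD1 stood at 0.157, 0.155 and 4.75 FPKM in Wannanhua 1, 2 and 3, against 3.70, 1.99 and 5.52 FPKM in Yorkshire 1, 2 and 3 (limma adjusted p = 0.314). In both, Wannanhua 2 was low with Wannanhua 1, and Wannanhua 3 lay at or near the Yorkshire levels; without Wannanhua 3 both passed (limma adjusted p = 0.00380 for HOXD9 and 0.0304 for HOXD1).

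Further paralogues next to members were low. HOXB6, between HOXB5 and HOXB7 in the cluster, stood at 0.0531, 0.860 and 0.423 FPKM in Wannanhua 1, 2 and 3, against 0.566, 0.737 and 0.312 FPKM in Yorkshire 1, 2 and 3, with Wannanhua 1 lowest. HOXB5 and HOXB8 stayed under 0.36 FPKM in all libraries. HOXD3, beside HOXD4, stood at 0.499, 0.209 and 0.334 FPKM in Wannanhua 1, 2 and 3, against 0.232, 0.730 and 0.865 FPKM in Yorkshire 1, 2 and 3, so the breeds overlapped.

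Of the TALE partners, 5 of 9 listed genes had a row and 3 were tested, of which 1 passed. PBX3 stood at 1.27, 0.721 and 1.87 FPKM in Wannanhua 1, 2 and 3, against 9.12, 8.10 and 12.2 FPKM in Yorkshire 1, 2 and 3 (log2 difference -2.25, limma adjusted p = 0.00950; -2.26 without Wannanhua 1, limma adjusted p = 0.0542). With each library left out in turn the limma adjusted p of PBX3 ran from 0.00666 to 0.0690, past the threshold in 3 of 6 fits. PBX2 stood at 27.6, 33.4 and 36.8 FPKM in Wannanhua 1, 2 and 3, against 23.1, 30.0 and 24.1 FPKM in Yorkshire 1, 2 and 3 (limma adjusted p = 0.349). MEIS2 stayed under 1 FPKM in all libraries, and MEIS1 was not analysed here. The breeds did not overlap in PBX3, and Wannanhua 1 lay between Wannanhua 2 and 3.

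Polycomb proteins keep HOX genes silent and trithorax proteins keep them active. Of 13 polycomb genes tested, 0 passed in limma (1 at an unadjusted p under 0.05, 0 in edgeR), with a median difference of 0.20. Of 11 trithorax and demethylase genes tested, 0 passed (0 at an unadjusted p under 0.05, 0 in edgeR), with a median of 0.13. Of the other regulators of the body axis 2 were tested, CTCF and GMNN, and 0 passed (1 at an unadjusted p under 0.05, 0 in edgeR). These 2 differed by 0.04 and 0.49.

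Retinoic acid, made from vitamin A, switches on low-numbered HOX genes in the embryo. Of 18 retinoid genes 14 had a row and 7 were tested, of which 1 passed, RXRG, a retinoid X receptor known from muscle, and the median difference was -0.28. RXRG stood at 15.1, 34.6 and 19.0 FPKM in Wannanhua 1, 2 and 3, against 72.7, 60.0 and 77.6 FPKM in Yorkshire 1, 2 and 3 (log2 difference -1.65, limma adjusted p = 0.0412; edgeR adjusted p = 0.0185). Its limma call was lost without Wannanhua 1 (-1.40, limma adjusted p = 0.139) and with no filter (limma adjusted p = 0.0702), and held in 1 of the 6 fits that left out a library. The breeds did not overlap in RXRG, and Wannanhua 1 was its lowest library. The 14 retinoid genes summed to 57.3, 122 and 101 FPKM in Wannanhua 1, 2 and 3, against 139 to 149 FPKM in Yorkshire. This sum, too, was lowest in Wannanhua 1. It was carried by RXRG and by DHRS3, which stood at 8.22 FPKM in Wannanhua 1 and at 30.8 to 52.8 FPKM in the other libraries. The sum therefore does not show a fall of the whole list in Wannanhua 1. The part of the retinoid genes in the HOX levels was not tested.

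HOXC6 had the widest range of the members, 4.07 on the log2(FPKM + 1) scale, and 7201 genes with a symbol and a mean of at least 1 FPKM were compared with its profile over the 6 libraries. The measure was the root mean square difference of log2(FPKM + 1) after centring each gene. The nearest was DHRS3, which reduces retinaldehyde, at 0.62, with 8.22, 50.9 and 50.8 FPKM in Wannanhua 1, 2 and 3, against 43.2, 52.8 and 30.8 FPKM in Yorkshire 1, 2 and 3. CIB2, KCNH2, COA4 and PALMD followed at 0.89 to 0.95. The profile they were chosen by is set mostly by the low level of HOXC6 in Wannanhua 1, so their low levels there follow from the choice.

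Markers of other cell types were read beside these values. Of 93 markers in 10 lists 59 had a row and 41 were tested, of which 0 passed in limma (7 at an unadjusted p under 0.05, 0 in edgeR), and no list had a marker at 0 in all libraries. Summed levels were 17.5 to 29.0 FPKM in Wannanhua against 29.3 to 51.4 FPKM in Yorkshire for satellite cells (6 of 9 with a row), 310 to 391 FPKM in Wannanhua against 326 to 801 FPKM in Yorkshire for fibroblasts (7 of 12), and 22.6 to 39.5 FPKM in Wannanhua against 12.8 to 95.8 FPKM in Yorkshire for tendon cells (6 of 7). The breeds overlapped for fibroblasts and tendon cells. The lower satellite cell sum of Wannanhua was carried by MYOD1 and CDH15, each lower there without overlap. MYF5 was higher without overlap, at 1.55 to 3.03 FPKM in Wannanhua against 0.234 to 1.49 FPKM in Yorkshire. In the rest of the satellite cell markers the breeds overlapped. Sums were 59.6 to 86.1 FPKM in Wannanhua against 60.7 to 72.1 FPKM in Yorkshire for endothelium (6 of 10), 48.8 to 68.4 FPKM in Wannanhua against 21.3 to 60.1 FPKM in Yorkshire for adipocytes (5 of 10), and 16.7 to 24.6 FPKM in Wannanhua against 18.0 to 28.4 FPKM in Yorkshire for macrophages (6 of 10). Schwann cell markers summed to 7.89 to 11.8 FPKM in Wannanhua against 0.853 to 5.75 FPKM in Yorkshire (4 of 9), and T and B cell markers to 1.40 to 1.98 FPKM in Wannanhua against 2.62 to 2.94 FPKM in Yorkshire (7 of 10, all under 1 FPKM).

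Wannanhua 1 had the lowest sum of smooth muscle and pericyte markers, carried by ACTA2 and TAGLN, at 88.8 FPKM in Wannanhua 1 and 190 and 241 FPKM in Wannanhua 2 and 3, against 105 to 147 FPKM in Yorkshire (8 of 10), while 5 of the 8 markers had their lowest level in another library. It was the highest for red cell markers, at 144 FPKM in Wannanhua 1 and 119 and 43.7 FPKM in Wannanhua 2 and 3, against 15.8 to 93.9 FPKM in Yorkshire (4 of 6). Slow fibre markers were high in Wannanhua 1 and 2, at 38305 and 41055 FPKM, and 10108 FPKM in Wannanhua 3, against 5577 to 17014 FPKM in Yorkshire (4 of 7). Fast fibre markers stood at 18689, 10351 and 34732 FPKM in Wannanhua 1, 2 and 3, against 49920 to 51170 FPKM in Yorkshire (5 of 9). Wannanhua 1 lay close to Wannanhua 2 in slow fibre markers and between Wannanhua 2 and 3 in fast fibre markers. Of the 5 myofibre markers tested 1 passed in limma, CASQ1, lower in Wannanhua (limma adjusted p = 0.0435, edgeR adjusted p = 0.0612). The limma call of CASQ1 held in 1 of the 6 fits that left out a library. The part of these cell types in the HOX levels was not tested.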

How the data were processed

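RNA of 6 libraries was poly-A selected and sequenced from both ends with a kit that does not mark strand, per the labels' protocols. Where a HOX gene and an antisense transcript share positions, their reads cannot be told apart by strand. The submitters' processing notes list CASAVA 1.7, TopHat2 2.0.6 and build Sscrofa 10.2; the labels name no counter or annotation. The authors' deposited table gives FPKM per gene and library, scaled by the authors, and a deposited count column that is treated as a signal, because its values are reads times a library factor.

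Dividing each count column by its step (sought around the most frequent value near 1) made 99.7% to 99.8% of values above 0 whole, within 0.01 read or a relative 1e-05. A gene name table gave symbols to 10384 of 17627 Ensembl identifiers (58.9%). Genes with at least 1 FPKM in 3 libraries were fitted with limma 3.58.1 (R 4.3.3) on log2(FPKM + 1), with breed as the only term and trend and robust moderation, adjusted by Benjamini-Hochberg; fold changes on this scale understate those of low genes. The 7 genes that reached a scaled count of 10000 and were listed at 0 elsewhere were left out. Because the counts were not whole as deposited, edgeR 4.0.16 (TMM, minimum count 10) and DESeq2 1.42.0 on recovered reads are alternatives. Methods were tested on simulated data. Members, lists, tests and alternatives were chosen with earlier results of these data known. The genes named by rule are the 10 members, and other HOX genes past the threshold or next to a member. The rule also names up to 3 called genes per companion list, PBX3, MEIS1 and MEIS2, and the 5 genes nearest to the widest-ranging member. PBX2, CTCF, GMNN, HOXD1, HOXD9, ACTA2, TAGLN, MYOD1, CDH15, MYF5, TNNC2, CASQ1, DES, NEB and ATP2A1 were chosen after their values were seen. Some genes that this rule names are not reported here.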

Additional observations from a re-analysis of the deposited data

How the results depend on the processing

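With 360 genes past the limma threshold as reported, 69 passed with no filter, 205 with the replicate block, 1249 in DESeq2, and 11 to 504 with each library left out (36, 19 and 504 without Wannanhua 1, 2 and 3; 149, 46 and 11 without Yorkshire 1, 2 and 3). Of the members, 0 passed as reported, 1 after quantile normalization, in edgeR and in edgeR with no filter, 2 in DESeq2, and 0 with any library left out of limma or edgeR. Of 202 values of single members under alternatives, 192 kept sign and side of the threshold, 5 crossed it (HOXA5 4 times, HOXA7 once) and 5 changed sign, all without Wannanhua 1: HOXA2 to -0.02, HOXA3 to -0.58 in limma and -1.35 in edgeR, and HOXC6 to 0.32 in limma and 0.12 in edgeR; the cause was not tested. Over the libraries left out, HOXA2 ran from -0.0202 to 0.50, HOXA3 from -0.58 to 1.04 in limma and -1.35 to 2.14 in edgeR, and HOXC6 from -1.72 to 0.32 in limma. In limma HOXB2 ran from 0.38 to 1.07, HOXD4 from -1.08 to -0.36, HOXA5 from -1.27 to -0.79 and HOXA7 from -1.56 to -1.01, and with no filter HOXB4 ran from 0.029 to 0.42 and HOXB7 from -0.58 to -0.00485 (-1.92 in edgeR without Wannanhua 2). Of the genes called, 57.8% were higher in Wannanhua as reported, 40.8% after quantile normalization, 49.0% in edgeR and 68.0% in edgeR without TMM. Libraries were not paired by number in the main fit. Deviations of same-numbered libraries correlated at 0.10, -0.01 and 0.11 across genes, and those of differently numbered libraries of the 2 breeds at -0.13 to 0.02. Such weak correlations cannot settle whether the numbers pair the libraries. HOXA2, HOXB4 and HOXB7 rest on few reads, which limits what their differences can show. Leaving libraries out of edgeR, or of limma with no filter, and for genes outside the members, was chosen after seeing the data.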
